A study of Mus musculus with 8 samples.

Results

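Repopulating microglia were compared with bone-marrow macrophages, the groups that carry the strain label DTRmg, which together make up 6 of the 8 mouse RNA-sequencing libraries of the study (n = 3 a group). The libraries were chosen by group alone, and no measured value entered that choice. The other 2 libraries are wild-type microglia with the strain label DTR, whose values are given beside some genes as a description. Renewal of microglia and the signals of interleukin-1 are the subject that the title of the series gives.

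Tamoxifen (2 mg, subcutaneous) was given on postnatal days 12 and 14, per the protocols in the labels, and for depletion of microglia 500 ng diphtheria toxin 3 times. One protocol text is attached to every sample, so the labels do not show which of these treatments the bone-marrow macrophages or the wild-type microglia received, nor the age at sampling or the time since depletion. In the study's mouse strain, as known from its publication, Cre recombinase driven from the Cx3cr1 locus and switched on by tamoxifen allows expression of a diphtheria toxin receptor. Cells that use Cx3cr1 when tamoxifen is given are therefore the ones made sensitive to the toxin. After papain digestion of brains and a Percoll step, cells were isolated by fluorescence-activated sorting on markers that the labels do not name. Whether marrow or brain was the source of the bone-marrow macrophages is not in the labels, nor whether replicates are separate animals, so p-values measure the spread between these libraries, which may be technical in part. The bone-marrow columns are named mono in the values and the samples bm_micro, and they were assigned by exclusion.

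Microglia are the macrophages of the brain parenchyma. They are seeded from the embryonic yolk sac, renew themselves locally, depend on the receptor Csf1r and on TGF-beta, and are marked by genes such as P2ry12, Tmem119 and the transcription factor Sall1. Macrophages that arise from bone marrow come from monocytes. When such cells enter an emptied brain they are known to take up some microglial markers while keeping features of their blood origin, and Sall1 is known as a factor that they do not switch on well.

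Total reads ran from 6853696 to 12476427 in the bone-marrow libraries and from 5918944 to 9523997 in the repopulating ones, and 11126 of 23413 genes passed a minimum of 10 normalised counts in 2 of the 6 libraries. Repopulating library 3 stood apart from its group. Across genes, which are not independent replicates, its log2 levels correlated with those of repopulating 1 and 2 at r = 0.938 and 0.917, against 0.979 between those 2. Ribosomal protein genes took 6.61% of its normalised counts against 10% and 10.2%, and 9.25% to 9.7% in the bone-marrow libraries. The median gene had an SD of 0.326 on the log2 scale over the repopulating libraries and 0.149 over repopulating 1 and 2, against 0.139 over the bone-marrow libraries. Many of the results that repopulating 3 changes are therefore also given without it. Libraries also differed in sex-linked transcripts within each group: Xist, made from the inactive X chromosome, was at 0.568, 567 and 538 normalised counts in bone-marrow 1, 2 and 3 and at 706, 0 and 596 in repopulating 1, 2 and 3. The Y-linked gene Ddx3y was at 279, 0 and 0 and at 0.945, 399 and 105, so that repopulating 3 held both transcripts. Neither gene separated the groups, and with these levels the libraries of a group cannot all come from 1 animal.

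Markers of the mononuclear phagocyte were high in all 6 libraries. Itgam, the integrin chain CD11b, and Csf1r, the receptor that macrophages need to survive, were called higher in repopulating microglia. They were 2 of 6 tested markers, beside 14.0% of all tested genes, and Aif1, Cd68, Emr1 and Ptprc were not called. Csf1r was at 36900, 39380 and 40130 in bone-marrow 1, 2 and 3 and at 85700, 67290 and 103800 in repopulating 1, 2 and 3, a log2 fold of 1.12 ± 0.21 (SE, limma adjusted p = 0.00699). Its call was lost under quantile normalisation (log2 fold 0.57, adjusted p = 0.0806, the highest over 20 other settings, which reached down to 1.77e-07). Ptprc, the pan-leukocyte antigen CD45, was at 3383, 3593 and 3145 against 2449, 2094 and 2938. Its groups did not overlap, with repopulating microglia lower, but the log2 fold of -0.45 ± 0.16 was not called (adjusted p = 0.0696). It was called lower in 6 of the 20 other settings, over which its adjusted p ran from 0.000786 to 0.21. In bulk samples fewer cells of a type and less RNA per cell cannot be told apart, here and in every result that follows.

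Genes were called at a limma adjusted p under 0.05, Benjamini-Hochberg over all 11126 genes. Repopulating microglia differed from bone-marrow macrophages in 3050 genes, 27.4% of those tested, of which 1554 (14.0%) were higher and 1496 (13.4%) lower in repopulating microglia. All called genes had groups that do not overlap, a state that 46.3% of tested genes reached. Past 4-fold there were 343 higher and 511 lower genes, and past 8-fold 161 and 216. In a principal component analysis the leading axis (71.7% of the variance) placed the bone-marrow libraries between -59.6 and -55.5 and the repopulating ones between 42.2 and 76.8. Without repopulating 3 the calls numbered 5511 (24.2% of tested genes higher and 25.3% lower) and took in 3046 of the 3050. Of 81 tested ribosomal protein genes 1 was called higher in the main result and 58 without repopulating 3. Leaving out bone-marrow 1, 2 or 3 left 1577, 1837 or 1702 calls, and leaving out repopulating 1 left 2026. Higher calls among these numbered 822, 981, 910 and 1016, and lower calls 755, 856, 792 and 1010. Counts of list members without single libraries, given below, stand beside these totals. The split of calls depends on the scaling: with libraries scaled to equal totals the median fold of all genes moved from 0.0 to -0.25, and 28.1% of calls were higher against 51.0%.

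**Figure D1:**
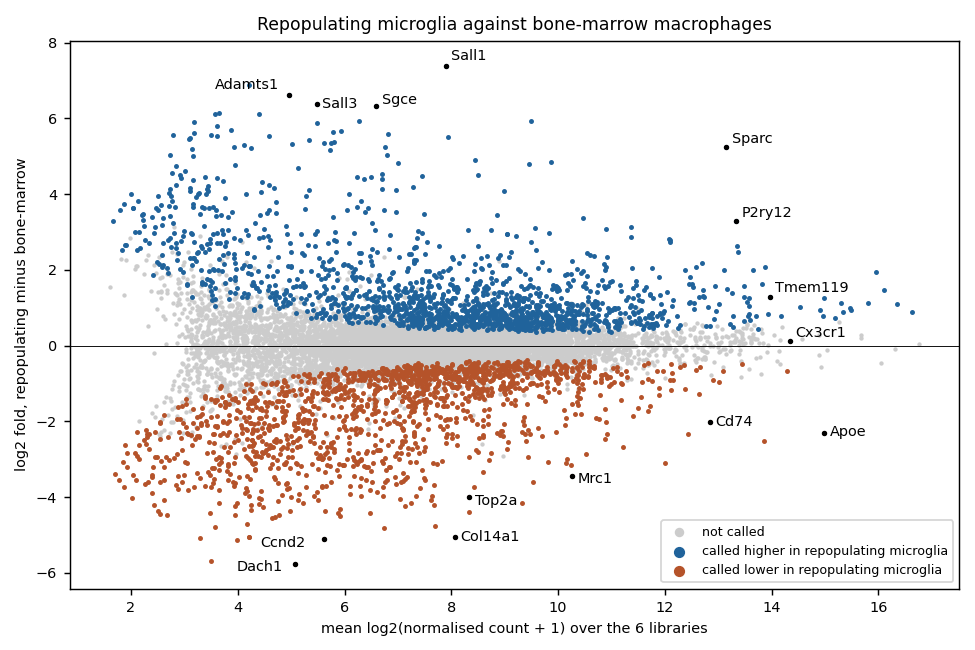
Log2 fold of each tested gene (vertical, repopulating microglia minus bone-marrow macrophages) against its mean log2(normalised count + 1) over the 6 libraries (horizontal). Blue points are the 1554 genes called higher, brown points the 1496 called lower and grey points were not called; Sall1 lies at 7.39, Dach1 at -5.75 and Cx3cr1 at 0.12.

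Surface and secreted markers of microglia were higher in repopulating microglia almost throughout in the main result. Of 28 tested genes of that list 26 were called higher and 0 lower (background 14.0% and 13.4%), with a median log2 fold of 1.89 beside 0.0 over all tested genes. Their summed level was 225800 to 240000 normalised counts in the bone-marrow libraries and 589400 to 742700 in the repopulating ones, with 931100 and 968100 in the wild-type libraries. Golm1 (adjusted p = 0.0531, and 0.00252 without repopulating 3) and Cx3cr1 were the 2 not called in the main result. The higher count was 22 with equal totals, 24 with TMM factors and 19 with quantile normalisation, and the lower count 0 in each. Genes called higher over all tested then numbered 1020, 1353 and 1589.

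P2ry12, the purine receptor with which microglia sense nucleotides from injured cells (GRCm38 chromosome 3, 59216272 to 59262871, minus strand), was at 2960, 4044 and 3020 in bone-marrow 1, 2 and 3 and at 36760, 27060 and 34120 in repopulating 1, 2 and 3. All repopulating libraries lay several fold above the highest bone-marrow library, a log2 fold of 3.29 ± 0.19 (adjusted p = 0.000113). Tmem119, a membrane protein used to stain microglia (chromosome 5, 113793729 to 113800516, minus strand), was at 10110, 9461 and 11340 against 26590, 19380 and 29810. The groups did not overlap, and the log2 fold was 1.27 ± 0.20 (adjusted p = 0.0031). Both genes were thus also well expressed in each bone-marrow library. Siglech, a sialic acid binding lectin of microglia, was at 1624, 1728 and 1781 against 6458, 6453 and 8544, a log2 fold of 2.05 ± 0.15 (adjusted p = 0.000176).

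Larger differences were found for Sparc, Gpr56, Adora3 and Slc2a5. Sparc, a secreted matrix-binding protein (chromosome 11, 55394500 to 55423183, minus strand), was at 1385, 1479 and 1587 in the bone-marrow libraries and at 54970, 45690 and 70650 in the repopulating ones, a log2 fold of 5.24 ± 0.18 (adjusted p = 1.66e-05). Gpr56, an adhesion receptor, was at 85.2, 97.6 and 92.6 against 6035, 2624 and 11470 (5.93 ± 0.47, adjusted p = 0.000224). Adora3, an adenosine receptor, was at 33.5, 36.1 and 37.0 against 2164, 1374 and 1511 (5.50 ± 0.19, adjusted p = 1.66e-05). Slc2a5, a fructose transporter that marks microglia among brain cells, was at 145, 121 and 133 against 3686, 3092 and 4533 (4.80 ± 0.17, adjusted p = 1.66e-05). In these 4 genes the bone-marrow libraries lay within a narrow range and every repopulating library stood well over 10 times higher.

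Cx3cr1, the fractalkine receptor whose locus drives the Cre of this strain (chromosome 9, 119901616 to 120069879, minus strand), behaved otherwise. It was at 19850, 21980 and 18450 in bone-marrow 1, 2 and 3 and at 22580, 19170 and 23760 in repopulating 1, 2 and 3. The groups overlapped, and the log2 fold of 0.12 ± 0.16 was not called (adjusted p = 0.629). Its sign turned with the scaling, to -0.13 with equal totals and -0.34 with quantile normalisation.

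**Figure D2:**
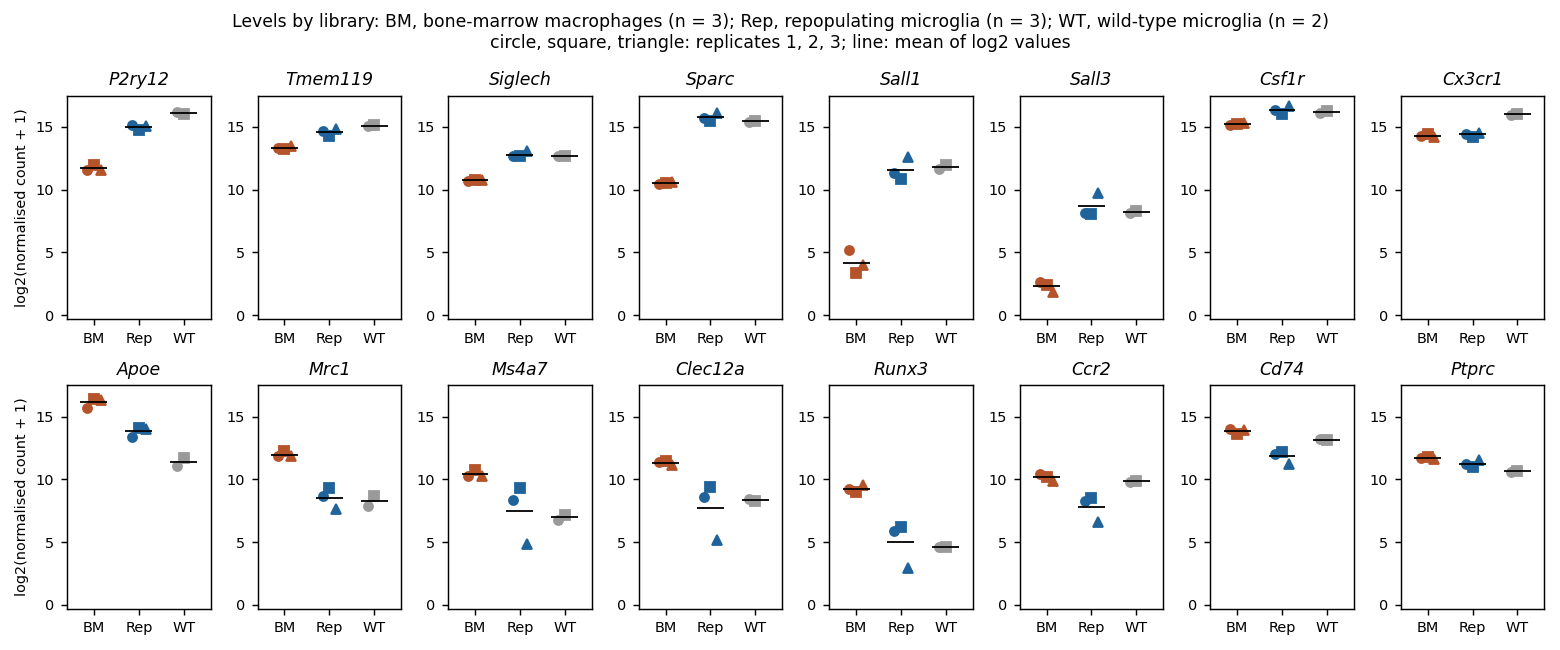
Log2(normalised count + 1) of 16 genes in each library, with bone-marrow macrophages (BM) in brown, repopulating microglia (Rep) in blue and wild-type microglia (WT) in grey; circles, squares and triangles are replicates 1, 2 and 3 and lines are means of log2 values. P2ry12, Sparc, Sall1 and Sall3 lie higher in all repopulating libraries, Cx3cr1 overlaps between the groups, and Ms4a7, Clec12a and Runx3 show repopulating 3 (triangle) far below repopulating 1 and 2.

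Transcription factors held the largest single difference. Of 26 tested lineage factors 14 were called higher (53.8%) and 3 lower (11.5%), with a median log2 fold of 0.67. The shares over all tested genes were 14.0% and 13.4%. This list shares members, such as Klf2, with the immediate-early list described below, so the counts of the lists are not independent. Sall1, a zinc-finger factor that keeps microglial identity (chromosome 8, 89027235 to 89044162, minus strand), was at 35.8, 9.55 and 15.0 in bone-marrow 1, 2 and 3 and at 2594, 1864 and 6101 in repopulating 1, 2 and 3. Even the highest bone-marrow library held far less than the lowest repopulating one, a log2 fold of 7.39 ± 0.55 (adjusted p = 0.000188); the wild-type libraries were at 3180 and 4056. Its relative Sall3 was at 5.11, 4.24 and 2.65 against 289, 264 and 873 (6.38 ± 0.48, adjusted p = 0.000188). Tal1, a blood-lineage factor also found in microglia, was at 69.9, 71.1 and 71.4 against 267, 260 and 377 (2.05 ± 0.19, adjusted p = 0.000354).

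Klf2, a factor of quiescent cells, was at 248, 389 and 347 in the bone-marrow libraries against 3034, 1711 and 3126, a log2 fold of 2.97 ± 0.27 (adjusted p = 0.000382). Members of the Runx family differed in sign. Runx1, a factor of blood formation, was at 269, 316 and 304 against 421, 453 and 696 (0.78 ± 0.21, adjusted p = 0.0287). That call was lost without bone-marrow 1, 2 or 3 (adjusted p = 0.117, 0.0779 and 0.0898) and with equal totals (0.123), and its adjusted p lay between 0.00153 and 0.123 in the settings tried. Runx3, used in lymphoid and some myeloid cells (chromosome 4, 135120652 to 135177990, plus strand), was at 602, 508 and 743 against 57.6, 72.3 and 6.91 (-4.24 ± 0.77, adjusted p = 0.0064), with repopulating 3 lowest by far. Runx2 was at 47.2, 47.7 and 36.2 against 7.56, 5.90 and 13.8 (-2.21 ± 0.36, adjusted p = 0.00404). Without bone-marrow 1, 2 or 3 the count of higher factors was 7, 9 or 8, and with equal totals it was 9; the count of lower factors was 5 without repopulating 3.

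The 15 named genes with the largest positive fold, some of them list members, included secreted and membrane proteins. Adamts1, a matrix protease (chromosome 16, 85793827 to 85803113, minus strand), was at 1.71, 2.12 and 2.65 in bone-marrow 1, 2 and 3 and at 289, 275 and 370 in repopulating 1, 2 and 3 (6.63 ± 0.25, adjusted p = 2.23e-05). Sgce, epsilon-sarcoglycan (chromosome 6, 4674350 to 4747207, minus strand), was at 9.66, 8.49 and 11.5 against 937, 649 and 1055 (6.32 ± 0.23, adjusted p = 1.88e-05). Jam2, a junctional adhesion molecule, was at 8.52, 6.36 and 7.94 against 399, 362 and 578 (5.68 ± 0.24, adjusted p = 3.67e-05). These 3 genes were low in every bone-marrow library and similar across the repopulating ones.

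Ebf3, a transcription factor, was at 1.71, 2.12 and 0.882 against 150, 139 and 257 (6.13 ± 0.36, adjusted p = 0.000113). Klk8, a serine protease, was at 18.2, 5.30 and 7.05 against 612, 511 and 693 (5.92 ± 0.40, adjusted p = 0.000158). Yes1, a kinase of the Src family, had 2 reads in all bone-marrow libraries together and 269 in the repopulating ones, a ratio of normalised levels of 198 with a 95% counting interval of 54.3 to 1640. For Tmc7, with 3 and 598 reads, the ratio was 294 (100 to 1430). Slc1a3, a glutamate transporter that astrocytes also express strongly, spread widely within its group, at 1387, 182 and 1909 against 17.1, 14.9 and 14.1 (5.59 ± 0.79, adjusted p = 0.00225). The other members of an astrocyte list summed to 103 to 146 normalised counts in the bone-marrow libraries and to 139, 106 and 389 in repopulating 1, 2 and 3, with 0 of 5 called; their part in the Slc1a3 result was not tested.

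Markers of border-associated macrophages, the macrophages of the meninges and vessels, were mostly lower in repopulating microglia. Of 19 tested genes 12 were called lower and 2 higher (background 13.4% and 14.0%), with a median log2 fold of -1.84. Mrc1, the mannose receptor CD206 (chromosome 2, 14229392 to 14332057, plus strand), was at 3645, 4909 and 3706 in bone-marrow 1, 2 and 3 and at 410, 654 and 196 in repopulating 1, 2 and 3. The highest repopulating library lay well below the lowest bone-marrow one, and Mrc1 fell by 3.43 ± 0.40 on the log2 scale (SE, adjusted p = 0.000974). Dab2, an endocytic adaptor, was at 3228, 3290 and 3282 against 404, 556 and 300 (-3.00 ± 0.22, adjusted p = 0.000175). Pf4, the chemokine platelet factor 4, was at 1517, 1390 and 1527 against 81.2, 202 and 19.6 (-4.40 ± 0.72, adjusted p = 0.00398).

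Stab1, a scavenger receptor, differed less, at 9748, 10940 and 9326 against 3438, 5245 and 3859 (-1.28 ± 0.18, adjusted p = 0.00234). Siglec1, the sialoadhesin CD169, was at 2100, 2310 and 2449 against 1061, 951 and 456 (-1.56 ± 0.30, adjusted p = 0.00845). The 2 higher members were Colec12, a scavenger receptor with a collagen stem, at 17.1, 32.9 and 27.3 against 254, 313 and 105 (2.98 ± 0.44, adjusted p = 0.00258), and Ccl24, a chemokine that draws eosinophils, at 2.27, 5.30 and 7.94 against 35.9, 67.9 and 25.3 (2.83 ± 0.52, adjusted p = 0.00644). The summed level of the list was 27100 to 31800 in the bone-marrow libraries and 7426, 10550 and 5498 in repopulating 1, 2 and 3, so that repopulating 3 was lowest.

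Genes of recruited monocytes were likewise lower: 12 of 21 tested members were called lower and 1 higher (background 13.4% and 14.0%). The median was -1.99, with summed levels of 47360 to 60220 against 13880, 22130 and 6305. Ccr2, the receptor by which monocytes leave marrow, was at 1386, 1195 and 917 in the bone-marrow libraries and at 304, 363 and 94.5 in the repopulating ones (-2.39 ± 0.48, adjusted p = 0.00944). Lyz2, lysozyme, was at 30460, 41290 and 35070 against 7103, 12500 and 2666 (-2.51 ± 0.50, adjusted p = 0.00962). Spn, the sialophorin CD43, was at 609, 501 and 582 against 23.6, 25.1 and 11.5 (-4.81 ± 0.30, adjusted p = 0.000135). Crip1, a small LIM protein, was at 718, 588 and 647 against 92.6, 120 and 42.6 (-3.04 ± 0.35, adjusted p = 0.000958). In all 4 genes repopulating 3 had the lowest level of the 6 libraries. The member called higher was Nr4a1, which is also an immediate-early gene and is described with those.

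Ms4a7 and Clec12a are markers used for macrophages of blood origin in the brain, and in both repopulating 3 was far below repopulating 1 and 2. Ms4a7 was at 1255, 1693 and 1209 in bone-marrow 1, 2 and 3 and at 320, 645 and 28.8 in repopulating 1, 2 and 3. The groups did not overlap, but its log2 fold of -2.90 ± 1.0 was not called (adjusted p = 0.068), whereas without repopulating 3 it was -1.59 with an adjusted p of 0.000192 (0.000192 to 0.184 over the other settings). Clec12a, an inhibitory lectin, was at 2653, 2843 and 2233 against 396, 669 and 34.6 (-3.60 ± 0.97, adjusted p = 0.0301). Its call was lost without bone-marrow 1, 2 or 3 or without repopulating 1 (adjusted p 0.0919, 0.099, 0.0905 and 0.0546), and its adjusted p lay between 1.51e-06 and 0.099 in the settings tried.

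**Figure D3:**
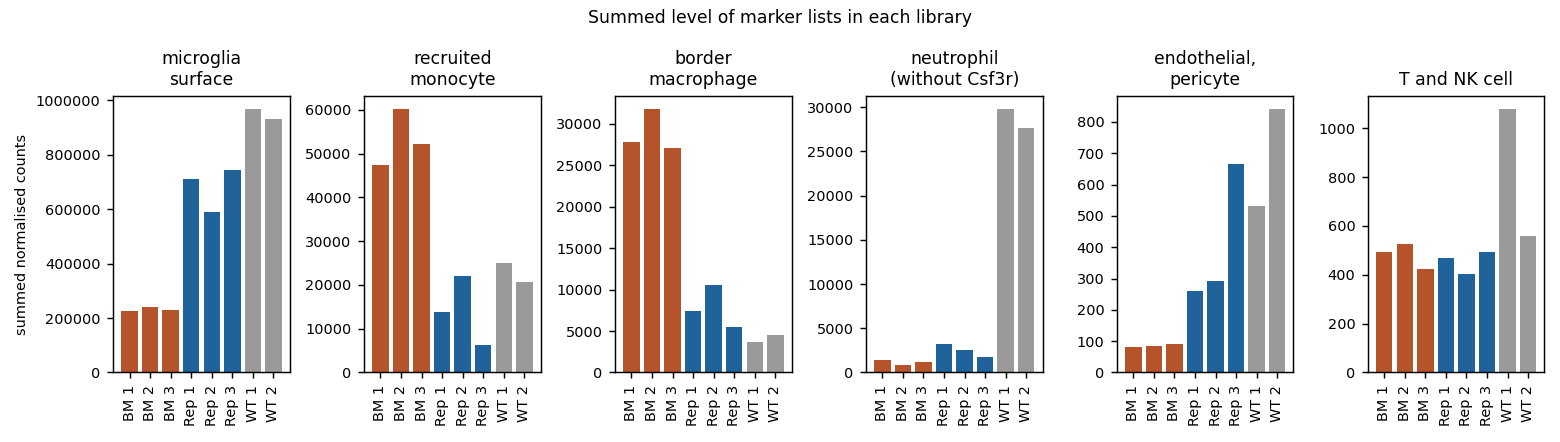
Summed normalised counts of 6 marker lists in each library (bars from 0; bone-marrow macrophages brown, repopulating microglia blue, wild-type microglia grey). Microglia surface genes sum to 589400 to 742700 in the repopulating libraries and 225800 to 240000 in the bone-marrow ones, and recruited monocyte and border macrophage genes show the opposite order.

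Markers of other cells differed as well (background 14.0% higher and 13.4% lower). For neutrophils 6 of 11 tested markers were called higher and 1 lower, and without Csf3r, which microglia share, the list summed to 865 to 1442 normalised counts in the bone-marrow libraries and 1720 to 3212 in the repopulating ones. Camp, a granule peptide, was at 83.5, 53.0 and 75.0 against 218, 190 and 154 (1.41 ± 0.23, adjusted p = 0.00399). The 6 higher calls fell to 4, 2 and 2 without bone-marrow 1, 2 and 3 and to 2 and 3 without repopulating 1 and 2, and the lower call was lost without bone-marrow 1 or 3. Endothelial and pericyte markers had 5 of 8 called higher, with sums of 82.4 to 90.8 against 259, 292 and 666, and 2, 1 or 1 called without bone-marrow 1, 2 or 3. Markers of T and NK cells had 7 of 10 called lower at low levels, with sums of 425 to 526 against 403 to 493, and 2, 4 or 3 called without bone-marrow 1, 2 or 3. Of the erythroid list 0 genes passed the filter and 4 were at 0 in all 6 libraries. The part of these cells in the results was not tested.

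Genes of mitosis and DNA replication were lower in repopulating microglia nearly without exception. All 30 tested mitosis genes were called lower, with a median log2 fold of -3.20, and 27 of 28 DNA replication genes, with a median of -2.34 (background 13.4% lower). Summed mitosis genes came to 12060, 9647 and 11920 normalised counts in bone-marrow 1, 2 and 3 and to 1171, 1567 and 985 in repopulating 1, 2 and 3, beside 1393 and 940 in the wild-type libraries. The counts stayed between 28 and 30 and between 25 and 28 when any 1 library was left out.

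Cell division genes are often read from promoters with CCAAT boxes, bound by the factor NF-Y, and late cell-cycle genes also from a cell-cycle homology region, whose core letters are TTTGAA. Promoters of 4 mitosis genes that the results turn on are shown, 150 bases before each start in RefSeq GRCm38.p6, read along the gene's strand, because these genes moved together. Capitals mark CCAAT or its complement ATTGG, and TTTGAA or its complement TTCAAA.
Top2a, chr11:99024190-99024339, minus strand: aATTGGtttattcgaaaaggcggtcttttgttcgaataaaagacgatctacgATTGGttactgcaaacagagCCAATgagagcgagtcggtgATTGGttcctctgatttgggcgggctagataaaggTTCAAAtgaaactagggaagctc
Bub1b, chr2:118598061-118598210, plus strand: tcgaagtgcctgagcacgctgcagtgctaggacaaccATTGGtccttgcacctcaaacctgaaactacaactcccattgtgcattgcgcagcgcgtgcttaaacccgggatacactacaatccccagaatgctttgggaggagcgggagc
Kif11, chr19:37376232-37376381, plus strand: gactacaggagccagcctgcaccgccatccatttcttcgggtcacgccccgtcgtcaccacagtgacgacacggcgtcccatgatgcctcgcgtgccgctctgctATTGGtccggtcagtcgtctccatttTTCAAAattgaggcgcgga
Hmmr, chr11:40733438-40733587, minus strand: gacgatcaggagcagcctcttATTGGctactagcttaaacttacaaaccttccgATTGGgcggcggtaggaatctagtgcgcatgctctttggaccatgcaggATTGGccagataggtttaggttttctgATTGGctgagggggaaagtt
The windows of Top2a and Hmmr hold 4 CCAAT boxes each and those of Bub1b and Kif11 hold 1. Over 250 bases before the start, searched on both strands, 22 of the 26 mitosis genes with a RefSeq promoter (84.6%) held CCAAT, against 37.5% of all 27025 promoters and 43.0% of those of genes called lower. TTTGAA stood in 9 of 26 (34.6%) against 18.3% of all promoters. Both motifs were chosen after the values had been seen, and a match is a run of letters, not a measured binding site.

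Top2a, the topoisomerase that untangles chromosomes (chromosome 11, 98992943 to 99024189, minus strand), was at 1368, 1160 and 1356 in bone-marrow 1, 2 and 3 and at 78.4, 84.1 and 77.2 in repopulating 1, 2 and 3. Libraries of a group lay close together and the groups far apart (-4.00 ± 0.13, adjusted p = 1.66e-05). Kif11, the motor that separates spindle poles, was at 458, 347 and 444 against 23.6, 20.7 and 12.7 (-4.42 ± 0.26, adjusted p = 0.000113). Bub1b, a checkpoint kinase, was at 636, 511 and 633 against 66.1, 72.3 and 66.8 (-3.09 ± 0.15, adjusted p = 7.02e-05). Hmmr, a spindle protein, was at 219, 187 and 215 against 23.6, 28.0 and 21.9 (-3.03 ± 0.19, adjusted p = 0.000139).

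Among replication genes, Rrm2, the subunit of ribonucleotide reductase made in S phase, was at 650, 553 and 661 in the bone-marrow libraries against 55.7, 54.6 and 46.1 (-3.55 ± 0.16, adjusted p = 3.67e-05). Uhrf1, which copies DNA methylation marks, was at 547, 451 and 646 against 52.9, 44.3 and 71.4 (-3.27 ± 0.22, adjusted p = 0.000158). Mcm7, part of the replicative helicase, was at 892, 792 and 955 against 159, 210 and 147 (-2.36 ± 0.17, adjusted p = 0.000175). The ranges of the groups were apart in each of them.

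Mki67, the proliferation antigen Ki-67, was the exception within its list. It was at 140, 105 and 176 in bone-marrow 1, 2 and 3 and at 2.83, 1.48 and 79.5 in repopulating 1, 2 and 3. Repopulating 1 and 2 were near 0 whereas repopulating 3 approached the lowest bone-marrow library (-3.92 ± 1.19, adjusted p = 0.0455). Its adjusted p was 0.126, 0.112 and 0.144 without bone-marrow 1, 2 and 3, 0.146 and 0.096 without repopulating 1 and 2, 0.0663 without a variance trend, 0.123 by edgeR and 0.237 by DESeq2, so that the call was lost in 8 of the 20 settings, and without repopulating 3 it was 1.74e-07.

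**Figure D4:**
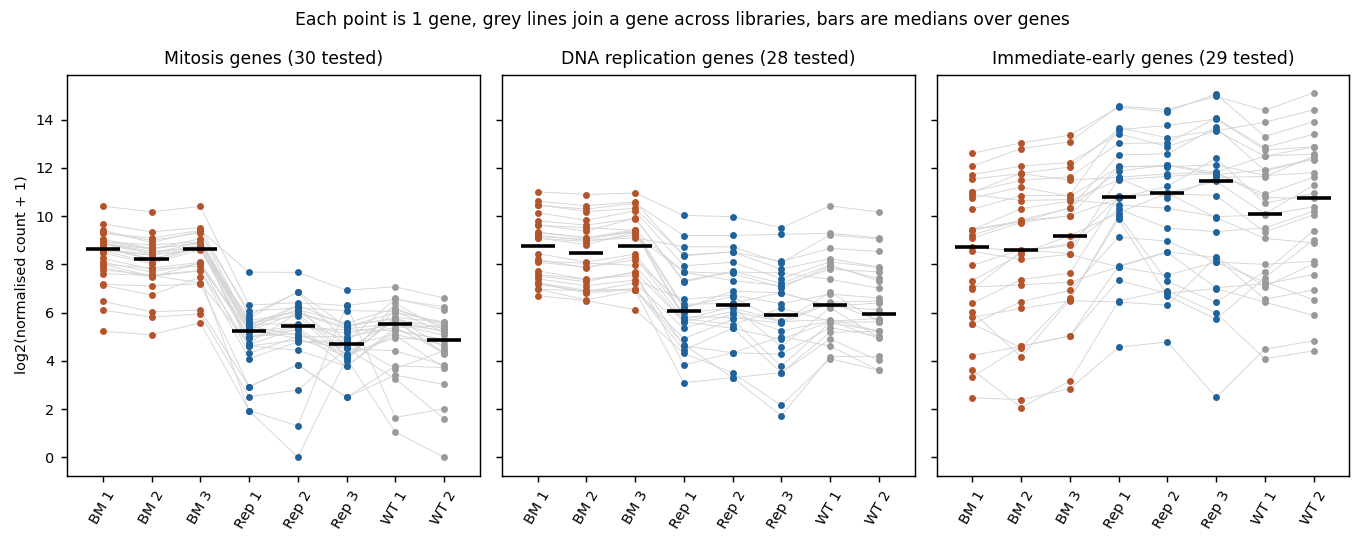
Log2(normalised count + 1) of each tested gene of 3 lists in every library (points; grey lines join a gene, bars are medians over genes; BM bone-marrow macrophages, Rep repopulating microglia, WT wild-type microglia). The 30 mitosis genes and 28 DNA replication genes lie lower in the repopulating than in the bone-marrow libraries, and the 29 immediate-early genes higher.

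Cell-cycle regulators were mixed, with 9 of 23 called lower (39.1%) and 4 higher (17.4%), beside 13.4% and 14.0% over all tested genes. Ccnd2, the D-type cyclin that couples growth signals to the cycle (chromosome 6, 127125162 to 127152193, minus strand), was at 351, 245 and 276 against 11.3, 7.38 and 4.61 (-5.11 ± 0.32, adjusted p = 0.000141). E2f2, a factor of S-phase genes, was at 477, 395 and 404 against 89.7, 118 and 137 (-1.89 ± 0.19, adjusted p = 0.000551). Cdk4, the kinase partner of D-type cyclins, was at 1445, 1211 and 1426 against 729, 875 and 617 (-0.89 ± 0.16, adjusted p = 0.00657). The 4 higher genes were the inhibitors Cdkn1a, Cdkn1b, Cdkn1c and Cdkn2b, with log2 folds of 1.29, 0.51, 1.45 and 1.69, and of them 0, 1, 0 and 1 were called without bone-marrow 1, 2 or 3 or repopulating 1. With libraries scaled to equal totals 1 gene of the list was called higher, where 1020 of all 11126 tested genes were. The lower count was 4 without bone-marrow 1 or 3.

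Immediate-early genes, which cells switch on within minutes of a stimulus and which tissue digestion is also known to induce, were higher in repopulating microglia. Of 29 tested genes 21 were called higher and 0 lower (background 14.0% and 13.4%), with a median log2 fold of 2.00. Egr2 was at 17.6, 23.3 and 31.8 in bone-marrow 1, 2 and 3 and at 245, 368 and 311 in repopulating 1, 2 and 3 (3.63 ± 0.26, adjusted p = 0.000175). Btg2, an antiproliferative protein, was at 1255, 1849 and 1857 against 13060, 9769 and 12030 (2.83 ± 0.20, adjusted p = 0.00017). Nr4a1, an orphan nuclear receptor, was at 125, 371 and 465 against 1754, 1953 and 1853 (2.73 ± 0.44, adjusted p = 0.00391). Bone-marrow 1 was lowest in these 3 genes, and the groups stayed apart. Summed, the list came to 30930, 42730 and 48840 against 132200, 122300 and 173400 in repopulating 1, 2 and 3, beside 97150 and 140200 in the wild-type libraries. Without repopulating 3 there were 25 higher and 2 lower calls. The lower count was also 2 with equal totals, TMM factors, library weights, all 8 libraries in the fit or DESeq2. It was 1 with quantile normalisation or edgeR.

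Interleukin-1 ligands and receptors, the subject of the series, were next examined. Of 11 tested genes 5 were called higher and 0 lower (background 14.0% and 13.4%), with a median log2 fold of 0.82. The higher count was 3 without repopulating 1 and 8 without repopulating 3. Of the lower direction 1 gene was called without repopulating 2 or 3. The lower count was also 1 with equal totals, TMM factors, library weights or a pseudocount of 5, and by edgeR and DESeq2. Il1a, the ligand interleukin-1 alpha (chromosome 2, 129299610 to 129309972, minus strand), was at 269, 474 and 450 in bone-marrow 1, 2 and 3 and at 1699, 2364 and 1433 in repopulating 1, 2 and 3. All repopulating libraries lay above all bone-marrow ones (2.21 ± 0.27, adjusted p = 0.00119). Il1b, the other main ligand, was at 139, 254 and 316 against 440, 980 and 288, so that repopulating 3 fell within the bone-marrow range, and its log2 fold of 1.16 ± 0.47 was not called (adjusted p = 0.113). Without repopulating 3 the fold of Il1b was 1.55 with an adjusted p of 0.00267, and over all other settings the adjusted p ran from 0.00267 to 0.322. Il1rn, the receptor antagonist, was at 70.5, 87.0 and 72.3 against 117, 118 and 43.8 and was not called (adjusted p = 0.809). Without repopulating 3, the lowest library for Il1rn, its log2 fold was 0.62 and it was called (adjusted p = 0.0118, the lowest over the settings, the highest being 0.921).

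Il1r1, the receptor that signals, was low in all libraries, at 11.9, 6.36 and 13.2 against 32.1, 38.4 and 27.6 (1.59 ± 0.35, adjusted p = 0.0142). The groups did not overlap, and the call was lost without repopulating 1 (adjusted p = 0.0509, the highest over the settings, the lowest being 0.00166). Il1rl1, the receptor of interleukin-33, was at 24.4, 32.9 and 30.9 against 90.7, 63.5 and 82.9 (1.39 ± 0.24, adjusted p = 0.00469). Il1rl2, a receptor of the interleukin-36 ligands, was at 113, 126 and 138 against 247, 204 and 283 (0.95 ± 0.18, adjusted p = 0.00728).

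Downstream, 9 of 32 signalling and inflammasome genes were called higher (28.1%) and 2 lower (6.25%), with a median of 0.26. The shares over all tested genes were 14.0% and 13.4%. The higher count was smaller in several settings: 3, 4 and 4 genes were called higher without bone-marrow 1, 2 and 3, 4 without repopulating 1 or 2, 3 with equal totals and 4 with TMM factors. Genes called higher over all tested then numbered 822, 981 and 910, 1016 or 1489, 1020 and 1353, against 1554 in the main result. The lower count was 1 without any 1 of the bone-marrow libraries or repopulating 2 and 4 without repopulating 3. Nfkbia, the inhibitor of NF-kappa-B that NF-kappa-B itself induces, was at 1067, 1651 and 2171 against 6253, 5385 and 3906 (1.70 ± 0.28, adjusted p = 0.00447). Tnfaip3, the ubiquitin editor A20, was at 431, 862 and 906 against 2068, 1969 and 2201 (1.58 ± 0.28, adjusted p = 0.00554). Nlrc4, an inflammasome sensor of bacterial proteins, went the other way, at 102, 119 and 122 against 8.50, 10.3 and 4.61 (-3.77 ± 0.32, adjusted p = 0.000282). Myd88, Irak1, Irak4, Traf6 and Casp1 were among the members not called.

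Of 25 tested chemokines and cytokines 12 were called higher and 6 lower (background 14.0% and 13.4%). Ccl4, which attracts lymphocytes and monocytes, was at 425, 706 and 867 in the bone-marrow libraries against 3690, 4900 and 2381 (2.45 ± 0.33, adjusted p = 0.00183). Cxcl13, which attracts B cells, was at 2.27, 0 and 0 against 285, 115 and 33.4 (6.14 ± 0.83, adjusted p = 0.00183). Ccl9, a macrophage chemokine, was at 430, 496 and 462 against 1672, 1086 and 1311 (1.53 ± 0.18, adjusted p = 0.000933). Il6 was at 1.137, 2.12 and 5.29 against 56.7, 35.4 and 66.8 (3.91 ± 0.49, adjusted p = 0.00132). Repopulating 3 was the lowest of its group for Ccl4 and Cxcl13 and the highest for Il6.

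The lower members included Pf4, given above, and Cxcl14, a chemokine of epithelia and macrophages, at 810, 869 and 954 against 65.2, 108 and 13.8 (-4.21 ± 0.65, adjusted p = 0.00316). Cxcl1, which attracts neutrophils, had 112 reads in the bone-marrow libraries and 1 in the repopulating ones, a level 76.0 times lower with a 95% counting interval of 13.4 to 3030.

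Interferon-response genes had 14 of 45 tested members called higher (31.1%, beside 14.0% over all genes) and 0 lower, with a median log2 fold of 0.73. The count changed when single libraries were left out, as did the calls over all genes. It was 32 without repopulating 3, which raised the background to 24.2%. It was 7, 8, 8 and 8 without bone-marrow 1, 2 or 3 or repopulating 1. In those fits 822, 981, 910 and 1016 of all 11126 genes were called higher, against 1554 in the main result. The DESeq2 test called 22, and without repopulating 3 there were 2 lower calls. The lower count was also 2 with equal totals or library weights, and 1 with quantile normalisation or without repopulating 1 or 2. Summed levels were 26430 to 30690 in the bone-marrow libraries and 68970, 44740 and 38190 in repopulating 1, 2 and 3, and 23200 and 28490 in the wild-type libraries.

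Ifit3, a tetratricopeptide protein that blocks viral RNA translation, was at 122, 196 and 216 in bone-marrow 1, 2 and 3 and at 993, 655 and 484 in repopulating 1, 2 and 3 (1.97 ± 0.31, adjusted p = 0.00352). Gbp2, a guanylate-binding protein, was at 104, 105 and 83.8 against 428, 331 and 218 (1.68 ± 0.26, adjusted p = 0.0031). Ddx58, the RNA sensor RIG-I, was at 266, 308 and 281 against 809, 605 and 576 (1.20 ± 0.17, adjusted p = 0.00196). The groups were apart, and repopulating 3 was the lowest of its group in each. Ifnar1, a chain of the type I interferon receptor, was by contrast lower, at 2174, 2222 and 1839 against 845, 952 and 690 (-1.33 ± 0.16, adjusted p = 0.00109).

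The promoter of Ifit3 is printed because it carries the interferon-response motif, 150 bases before the start in RefSeq GRCm38.p6, with the match in capitals. The motif searched is GAAA, then NN, then GAAA, found here as its complement.
Ifit3, chr19:34583379-34583528, plus strand: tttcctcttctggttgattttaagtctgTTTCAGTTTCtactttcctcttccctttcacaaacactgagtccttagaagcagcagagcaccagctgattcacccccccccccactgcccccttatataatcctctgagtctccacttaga
Within 250 bases before the start, 18 of 36 interferon-response genes with a RefSeq promoter held that motif on either strand, 50% against 3.46% of all promoters. The share was 4.75% among all genes called higher and 3.45% among those called lower. For other factors, the PU.1 core GAGGAAGT stood in 4.24% of promoters of genes called higher, 3.63% of those called lower and 3.35% of tested genes, AP-1 sites (TGANTCA) in 5.53%, 5.85% and 5.13%, and the E-box CACGTG in 11.1%, 9.39% and 10.3%. The SMAD palindrome GTCTAGAC was rare, in 1 of 1157 promoters of genes called higher and 2 of 1129 called lower.

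Antigen presentation by MHC class II split in direction, with 6 of 15 tested genes called lower and 5 higher (background 13.4% and 14.0%). Ciita, the master activator of these genes (chromosome 16, 10480059 to 10528418, plus strand), was at 90.4, 76.4 and 103 in bone-marrow 1, 2 and 3 and at 12.3, 22.1 and 18.4 in repopulating 1, 2 and 3 (-2.32 ± 0.28, adjusted p = 0.00115). Cd74, the invariant chain, was at 16920, 12300 and 15670 against 4208, 4708 and 2457 (-2.02 ± 0.26, adjusted p = 0.00156). H2-Ab1, a chain of the class II molecule (chromosome 17, 34257689 to 34269419, plus strand), was at 5774, 4250 and 5412 against 2010, 2232 and 977 (-1.64 ± 0.31, adjusted p = 0.00767). H2-Aa was at 7322, 5195 and 5633 against 2418, 2882 and 835 (-1.73 ± 0.44, adjusted p = 0.0239), a call lost without bone-marrow 1, 2 or 3 (adjusted p = 0.0916, 0.0675 and 0.0781; range over settings 3.43e-05 to 0.0916). No repopulating library reached the lowest bone-marrow level of these 4 genes.

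The higher members were H2-Oa and H2-Ob, which form the inhibitor of peptide loading, the co-stimulators Cd80 and Cd86, and the protease Ctss. H2-Oa was at 68.8, 54.1 and 72.3 against 449, 244 and 593 (2.62 ± 0.32, adjusted p = 0.00127). Cd86 was at 982, 1095 and 840 against 2877, 2261 and 2061 (1.30 ± 0.17, adjusted p = 0.00163). Among 17 class I genes 2 were called, both higher (11.8%, beside 14.0% over all tested genes), of which H2-T23 was at 1073, 1128 and 1242 against 3269, 2285 and 2170 (1.1424 ± 0.18, adjusted p = 0.00336). With 1 of the 3 bone-marrow libraries or repopulating 1 left out 1 class I gene was called, and without repopulating 2 or 3 there were 5 or 6, the background being 24.2% without repopulating 3. Reads of histocompatibility genes can be shared between near-identical copies.

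Receptors of innate immunity tended to be higher. Of 17 Toll-like receptor genes 10 were called higher and 1 lower, and of 8 Fc receptor genes 6 higher and 0 lower (background 14.0% and 13.4%). Toll-like receptor genes called higher numbered 14 without repopulating 3 and Fc receptor genes 7, where the background was 24.2%. Tlr3, which senses double-stranded RNA, was at 295, 355 and 298 in the bone-marrow libraries against 1636, 1169 and 991 (1.97 ± 0.20, adjusted p = 0.000566). Fcgr2b, the inhibitory Fc receptor, was at 1029, 1236 and 982 against 3702, 3266 and 2694 (1.57 ± 0.16, adjusted p = 0.000603). Tlr8, which senses single-stranded RNA, was lower, at 834, 948 and 615 against 88.8, 152 and 8.06 (-3.98 ± 0.94, adjusted p = 0.0183), and this call was lost without bone-marrow 1, 2 or 3 (0.0652, 0.0736 and 0.0599; range over settings 1.65e-06 to 0.0736).

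Lectins and paired receptors had more lower than higher calls. Of 21 tested C-type lectin genes 7 were called lower and 2 higher (background 13.4% and 14.0%). Of 22 genes of the CD300, PIR and TREM families 10 were called lower and 5 higher. The other 12 lectins were not called, and the CD300, PIR and TREM genes summed to more in the repopulating libraries (41840 to 47410 normalised counts) than in the bone-marrow ones (25680 to 28780). Klra2, a Ly49 receptor of monocytes, was at 1021, 1212 and 994 against 45.3, 117 and 10.4 (-4.76 ± 0.73, adjusted p = 0.00315). Trem1, an amplifier of inflammation on monocytes, was at 115, 106 and 103 against 12.3, 13.3 and 8.06 (-3.18 ± 0.26, adjusted p = 0.000241), whereas its relative Trem2, a lipid receptor of microglia, was at 5157, 5778 and 6047 against 12370, 11320 and 12700 (1.10 ± 0.13, adjusted p = 0.00119). Mrc2, a collagen receptor related to Mrc1, was at 25, 23.3 and 22.9 against 365, 214 and 1053 (4.14 ± 0.52, adjusted p = 0.00132), opposite in sign to Mrc1. Lower lectins numbered 3, 3, 4 and 3 without bone-marrow 1, 2, 3 or repopulating 1, higher lectins 5 without repopulating 3, lower paired receptors 6, 5 and 6 without bone-marrow 1, 2 and 3, and higher paired receptors 8 without repopulating 3.

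Of 8 Siglec genes 5 were called higher and 1, Siglec1, lower (background 14.0% and 13.4%). Without bone-marrow 1 or 2 or repopulating 1 the higher count was 3. Siglec5, an inhibitory member, was at 15.3, 32.9 and 23.8 in the bone-marrow libraries and at 829, 480 and 776 in the repopulating ones (4.82 ± 0.32, adjusted p = 0.000156).

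Complement genes were called higher in 10 of 19 cases (52.6%) and lower in 3 (15.8%), beside 14.0% and 13.4% over all tested genes. C2, a protease of the classical pathway, was at 4.55, 6.36 and 2.65 against 118, 97.4 and 56.4 (4.05 ± 0.40, adjusted p = 0.000511). Cd93, a receptor once named for C1q, was lower, at 344, 386 and 295 against 29.3, 47.2 and 28.8 (-3.28 ± 0.24, adjusted p = 0.000175). The count of lower genes was 1 without any 1 of the bone-marrow libraries and 5 without repopulating 3.

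Receptors of growth factors and cytokines included large single differences. Csf1, a ligand of Csf1r (chromosome 3, 107741048 to 107760469, minus strand), was at 43.2, 58.3 and 60.0 in bone-marrow 1, 2 and 3 and at 534, 378 and 1062 in repopulating 1, 2 and 3 (3.47 ± 0.36, adjusted p = 0.000641). Csf3r, the receptor of granulocyte colony-stimulating factor, was at 573, 753 and 707 against 3382, 2872 and 4639 (2.40 ± 0.20, adjusted p = 0.000284). Csf2ra, the receptor chain of granulocyte-macrophage colony-stimulating factor, was lower, at 1591, 1692 and 2197 against 966, 1015 and 903 (-0.91 ± 0.15, adjusted p = 0.00452). In all, 9 of 22 tested genes of that list were called higher and 3 lower (background 14.0% and 13.4%). The counts were 12 and 4 without repopulating 3, where the background was 24.2% and 25.3%.

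In the TGF-beta and BMP pathway 8 of 20 genes were called higher and 3 lower (background 14.0% and 13.4%), with 5 higher without bone-marrow 1 or 3. Bmpr1a, a type I BMP receptor (chromosome 14, 34410734 to 34503341, minus strand), was at 6.25, 7.42 and 9.70 against 416, 337 and 339 (5.39 ± 0.23, adjusted p = 3.67e-05). Eng, the co-receptor endoglin, was at 190, 224 and 214 against 962, 608 and 1953 (2.32 ± 0.38, adjusted p = 0.00409). Tgfbi, a matrix protein that TGF-beta induces in many cells, was lower, at 11530, 12060 and 12580 against 1599, 2615 and 676 (-3.09 ± 0.43, adjusted p = 0.00211). The receptor genes themselves differed less: Tgfbr1 had a log2 fold of 0.79 (adjusted p = 0.0164) and Tgfbr2 of 0.23, not called (adjusted p = 0.215).

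Purine signalling had 7 of 14 tested genes called higher and 1 lower (background 14.0% and 13.4%). The lower one was Nt5e, the enzyme CD73 that makes adenosine, at 119, 92.3 and 108 in the bone-marrow libraries and at 2.83, 2.95 and 1.15 in the repopulating ones (-5.06 ± 0.34, adjusted p = 0.000158). Entpd1, the enzyme CD39 one step earlier, was higher, at 1767, 2123 and 1896 against 4417, 3676 and 5426 (1.21 ± 0.17, adjusted p = 0.00216). The 2 enzymes went in opposite directions, and the adenosine receptor Adora3, given above, was higher. Without repopulating 3 the lower count was 2.

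Of 35 lysosomal genes 17 were called higher and 2 lower (background 14.0% and 13.4%). The higher count was 9 and 10 without bone-marrow 1 and 3 and 9 with quantile normalisation. It was 25 without repopulating 3, where the background was 24.2%. The lower count was 1 without any 1 of the bone-marrow libraries or repopulating 1 and 4 without repopulating 3. Ctsl, cathepsin L, was at 1532, 1922 and 1635 against 12380, 11030 and 10650 (2.75 ± 0.14, adjusted p = 7.36e-05). Cst7, cystatin F, was at 72.7, 99.7 and 89.9 against 572, 610 and 464 (2.64 ± 0.18, adjusted p = 0.000158). Ctse, cathepsin E, was lower, at 2444, 2961 and 2709 against 165, 235 and 87.5 (-4.16 ± 0.33, adjusted p = 0.000224). Groups were far apart in each.

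Genes for the uptake of dying cells had 5 of 14 called higher and 2 lower (background 14.0% and 13.4%). Mertk, a receptor kinase that recognises such cells, was at 577, 694 and 604 in the bone-marrow libraries and at 2371, 1795 and 2987 in the repopulating ones (1.90 ± 0.20, adjusted p = 0.000605). Its relative Axl was at 17670, 18980 and 18800 against 16960, 13850 and 5689, with repopulating 3 lowest, and was not called (-0.75 ± 0.38, adjusted p = 0.187). Timd4, a receptor for phosphatidylserine, had 0 reads in the bone-marrow libraries and 29 in the repopulating ones, at least 14.2-fold higher against a floor of 3 reads over the group. The higher count was 3 without bone-marrow 1, and the lower count was 1 without any 1 bone-marrow library and 4 without repopulating 3, where the background was 25.3%.

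Of 33 tested genes of lipid handling 8 were called lower and 3 higher (background 13.4% and 14.0%), with 5 lower without any 1 bone-marrow library. Without repopulating 3 there were 7 higher, against a background of 24.2%. Apoe, the lipid carrier of brain and plaque macrophages (chromosome 7, 19696109 to 19699188, minus strand), was at 53080, 87430 and 80800 in bone-marrow 1, 2 and 3 and at 10950, 17150 and 16900 in repopulating 1, 2 and 3 (-2.29 ± 0.27, adjusted p = 0.000984). Lpl, lipoprotein lipase, was at 1853, 2210 and 1898 against 1103, 772 and 1136 (-1.0 ± 0.18, adjusted p = 0.00593). Abca9, a lipid transporter, was at 1722, 2107 and 1514 against 4501, 3901 and 4228 (1.25 ± 0.15, adjusted p = 0.00129). Genes known from disease-associated microglia had 8 of 27 called higher and 7 lower (background 14.0% and 13.4%). Among them were Csf1, Ctsl and Cst7 higher and Apoe, Lpl and Lgals3 lower. The higher count was 14 without repopulating 3, and the lower count 4 without bone-marrow 2 or 3.

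Integrins, guidance genes and channels held large differences of either sign. Itgb3, the beta-3 integrin chain, was at 30.7, 52.0 and 28.2 in the bone-marrow libraries and at 742, 601 and 657 in the repopulating ones (4.18 ± 0.25, adjusted p = 0.000113), whereas Itgal, the leukocyte integrin LFA-1, was at 3231, 3271 and 3388 against 605, 706 and 135 (-3.09 ± 0.57, adjusted p = 0.00664). Plxna1, a semaphorin receptor, was at 367, 374 and 401 against 25.5, 51.7 and 16.1 (-3.73 ± 0.38, adjusted p = 0.000551). Kcnd1, a voltage-gated potassium channel, was at 58.5, 54.1 and 68.8 against 473, 362 and 503 (2.86 ± 0.19, adjusted p = 0.000152). Kcnab2, a potassium channel subunit, was lower, at 668, 578 and 685 against 18.9, 63.5 and 35.7 (-4.15 ± 0.39, adjusted p = 0.0004).

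The counts for these lists were 4 of 16 integrins higher and 5 lower, 7 of 18 guidance genes higher and 8 lower, and 10 of 25 channels higher and 5 lower (background 14.0% and 13.4%). Integrins called lower numbered 3 without bone-marrow 1 or 3 and 2 without bone-marrow 2, guidance genes called higher 3 without bone-marrow 1 and 4 without repopulating 1, and channels called lower 9 with equal totals.

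The 15 named genes with the largest negative folds were led by Dach1 and Ccnd2, followed by surface and matrix genes such as Nt5e and Col14a1. Aspm (-4.56), Stard13 (-4.52), Kif4 (-4.48), Kif11 of the mitosis list (-4.42) and Spag5 (-4.36) also stood among them. Only some of the 15 are described here. Dach1, a developmental transcription factor (chromosome 14, 97786853 to 98169765, minus strand), was at 219, 307 and 225 in bone-marrow 1, 2 and 3 and at 6.61, 11.8 and 0 in repopulating 1, 2 and 3 (-5.75 ± 0.86, adjusted p = 0.00276). Col14a1, a fibril-associated collagen (chromosome 15, 55307750 to 55520803, plus strand), was at 1546, 1653 and 1437 against 52.9, 94.5 and 18.4 (-5.06 ± 0.51, adjusted p = 0.000542). Il2ra, the interleukin-2 receptor chain CD25, was at 146, 65.8 and 121 against 2.83, 2.95 and 1.15 (-5.05 ± 0.42, adjusted p = 0.00027). Adam19, a membrane protease, was at 266, 325 and 268 against 15.1, 28.0 and 3.46 (-4.48 ± 0.61, adjusted p = 0.00191). Lpcat4, an enzyme of phospholipid remodelling, was at 331, 208 and 285 against 13.2, 13.3 and 9.21 (-4.41 ± 0.26, adjusted p = 0.000113). In each of the 5 genes the highest repopulating level was far below the lowest bone-marrow level.

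**Figure D5:**
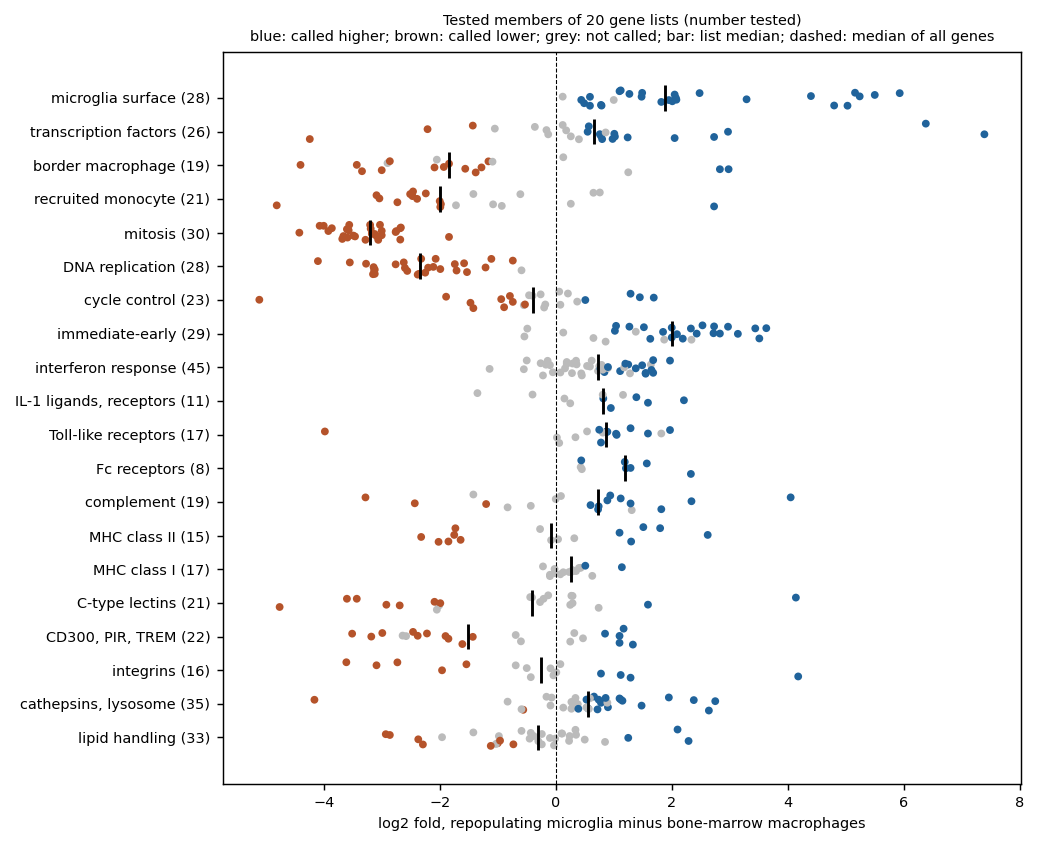
Log2 fold (horizontal, repopulating microglia minus bone-marrow macrophages) of every tested member of 20 gene lists, 1 row a list with the number tested in brackets. Blue points were called higher, brown points lower, grey points not called, black bars are list medians (1.89 for microglia surface genes, -3.20 for mitosis) and the dashed line is the median of all genes.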

How the data were processed

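Gene levels are the authors' deposited normalised counts, RNA-seq read counts per gene divided by a size factor for each library (signal values, from which the whole reads were recovered). The submitters' processing notes name DESeq, HTSeq, Bowtie2 2.1.0.0, TopHat2 2.0.10 and the build mm10, and give no settings here. The library kit does not mark strand, so overlapping and antisense genes cannot be told apart. Groups came from the labels, and 0 sample columns were left unused.

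Values were taken as log2(value + 1) for genes with at least 10 in at least 2 of the 6 libraries, which kept 99.9% of reads, and compared with limma 3.58.1 in R 4.3.3 (variance trend, no covariates, Benjamini-Hochberg adjustment, threshold 0.05). Fold changes are on that log2 scale and understate changes of low genes. Errors are standard errors. Count tests with edgeR 4.0.16 and DESeq2 1.42.0 were alternatives on the recovered reads, 100% of values being whole within 0.01 reads, and called 3109 and 3488 genes. Ratios of genes with 3 or fewer reads carry 95% intervals that cover counting error only. On simulated data for this comparison, over 10995 genes, 44% of 2-fold and 96% of 4-fold changes were recovered, with 7.285% false among calls. The simulation changed only a small share of genes and held no library that stands apart as repopulating 3 does. Its shares may therefore not hold for the calls in the real data.

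Named genes were the 15 largest called folds each way without overlap of the groups, where the higher group averaged 100 or more, up to 4 per list and direction by adjusted p, and a set of fixed genes; Aif1, Casp1, Cd68, Ctss, Emr1, Golm1, Irak1, Irak4, Myd88, Runx1, Tgfbr1, Tgfbr2 and Traf6 lie outside that rule and were chosen after their values were seen. The members and the 48 gene lists were chosen with earlier results of these data known. Promoters are from RefSeq (GRCm38.p6) and gene positions from GENCODE (GRCm38). Alternatives covered pseudocount, filter, scaling, library weights, variance model, block, tool and each library left out.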

Additional observations from a re-analysis of the deposited data

How the results depend on the processing

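Of 238 named calls 183 were kept in every one of the 20 settings that tested the gene. Some low genes, such as Timd4, were tested in 19, as they failed the filter of at least 50 in at least 3 libraries. Leaving out bone-marrow 1, 2 or 3 lost 45, 42 or 40 named calls, and repopulating 1 or 2 lost 34 or 9. Leaving out single libraries gave 1577 to 5511 calls, 822 to 2691 higher and 755 to 2820 lower, the fewest without bone-marrow 1 and the most without repopulating 3. Library weights gave 5896 calls (2930 higher, 2966 lower), and equal totals gave 1020 higher and 2615 lower. With the replicate block there were 2718 calls (1394 higher, 1324 lower). Deviations of libraries with the same number correlated at -0.085, -0.002 and 0.152, and those of libraries with different numbers at -0.161 to 0.17. With 3 libraries a group these values cannot show whether the numbers pair the libraries. Signs turned for Aldoc (-0.06 without repopulating 3, from -0.06 to 0.68 without single libraries), Il1rn (-0.10 with equal totals, -0.08 and -0.09 without repopulating 1 and 2, from -0.09 to 0.62 without single libraries), Cx3cr1 (-0.13 with equal totals, -0.34 with quantile normalisation) and Prss34 (0.10 with library weights, 0.0 by DESeq2, 0.44 without repopulating 3, from -1.22 to 0.44 without single libraries); the cause was not tested. With 5918944 to 12476427 reads a library, genes of a few reads are limited by counting.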

Other observations

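For several genes the 2 wild-type libraries lay outside both groups compared above; these values are a description with no test. Cx3cr1 was at 63890 and 68600 normalised counts in wild-type microglia, above all bone-marrow and repopulating libraries (18450 to 23760). Cre is driven from the Cx3cr1 locus in the study's mouse strain, and the wild-type libraries carry the strain label DTR rather than DTRmg. The part of that strain difference in the Cx3cr1 levels was not tested. Apoe was at 2214 and 3410, below the repopulating range of 10950 to 17150, and Axl at 1416 and 1479, below the lowest repopulating library at 5689. Igf1 was at 20.3 and 26.4, against 71.4 to 334 in the repopulating and 546 to 923 in the bone-marrow libraries. Among genes of monocytes and neutrophils, Ly6c2, a near-identical copy of Ly6c1 with which reads are uncertain, had levels of 1366 and 857 in wild-type microglia and of 11.8 to 94.3 in the other 6 libraries. S100a8, a calcium-binding protein of neutrophils, had levels of 9011 and 7656 in wild-type microglia and of 198 to 911 in the others. The part of neutrophils in these levels was not tested.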
